A study of Mus musculus with 6 samples.

Results

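The 10 genes described here make nitric oxide, keep its synthases active, turn its signal and that of natriuretic peptides into cyclic GMP (cGMP), or build caveolae. They are the nitric oxide synthases Nos1, Nos2 and Nos3, the dimethylarginine hydrolases Ddah1 and Ddah2, the natriuretic peptide receptor Npr1, the cGMP phosphodiesterase Pde5a, the cGMP-dependent kinase Prkg1, and the caveolins Cav1 and Cav3. They were chosen by symbol, and all 10 were found among the 32479 rows of the deposited table. The series holds 6 RNA sequencing libraries of C57BL/6J mice: 3 controls, and 3 animals that received carbon tetrachloride (CCl4), a solvent that scars the liver and was used here to model cirrhosis. All were labelled as primary cardiac fibroblasts, with 3 mice in each group. Dose, route and duration of CCl4, the vehicle of the controls, and the age and sex of the mice, are not stated in the sources used here.

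Nitric oxide diffuses from the cell that makes it and activates soluble guanylate cyclase, which makes cGMP. Natriuretic peptides reach the same messenger through receptors that are themselves guanylate cyclases. The messenger activates the kinase encoded by Prkg1, which relaxes vessel walls, and phosphodiesterases such as that of Pde5a break it down. Asymmetric dimethylarginine blocks the synthases, and the Ddah enzymes destroy it. Caveolae are flask-shaped pits of the cell membrane. Caveolin-1, abundant in endothelium and fibroblasts, binds and restrains the endothelial synthase encoded by Nos3. In heart and skeletal muscle caveolin-3 takes the place of caveolin-1.

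Values are FPKM, fragments scaled to gene length and to the mapped fragments of the library, so levels can be compared between genes. The libraries' FPKM sums ran from 519610 to 602760, and the 37 mitochondrial rows took 48.6% to 53.2% of them. Together with 7 pseudogenes that copy them, these rows took 65.3% to 68.5% in control and 71.5% to 72.1% in CCl4 libraries. The setting called without mitochondrial rows left out these copies too. Markers of heart muscle dominated libraries labelled as fibroblasts. The 12 cardiomyocyte markers summed to between 13793 and 21927 FPKM per library, against 460.9 to 745.5 for 12 fibroblast markers, 240.5 to 289.3 for 12 endothelial markers and 225.2 to 312 for 12 smooth muscle and pericyte markers. The resident fibroblast markers Pdgfra and Tcf21 were present at 3.47 to 4.71 and 1.96 to 2.85 FPKM. In such bulk libraries fewer cells of a type and less RNA per cell cannot be told apart. Each library came from its own mouse, so limma p-values set a group difference against the spread between libraries of different mice. That spread includes handling of the preparations, and limma draws each gene's variance toward a trend over all tested rows.

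In CCl4 libraries 3 of these genes were higher, the caveolin Cav1 by 1.48-fold, the inducible synthase Nos2 by 1.95-fold and the hydrolase Ddah1 by 3.01-fold in mean FPKM. Nos3, Npr1 and Prkg1 had group ranges that overlapped and did not pass the test. Cav3 and Ddah2 had higher means but missed the threshold. Pde5a and Nos1 were too low to be tested. Of the 8 members tested 3 rose and 0 fell. In limma 5 of the 8 were below an unadjusted p of 0.05, as were 44.5% of all tested rows. Across all 10995 rows tested, 31.8% were called in limma, 9.64% higher and 22.2% lower. The balance between these directions moved with scaling: the higher share of calls was 30.3% as deposited, 12.8% as TPM, 47.7% with TMM, 51.3% with quantile, 52.1% with median-ratio scaling and 41% without mitochondrial rows. Groups did not overlap for 4 of the 8 tested members, beside 48.7% of all tested rows. All 4 of those members were higher in CCl4. So 4 of the 8 tested members were both apart and higher, beside 14.7% of all tested rows. The median log2 fold change over the 8 was 0.31, beside -0.09 over all tested rows. Ddah1 passed the filter on low values only through its CCl4 libraries, so it had to differ to be tested at all, and the counts and median of the tested members support nothing further.

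**Figure D1:**
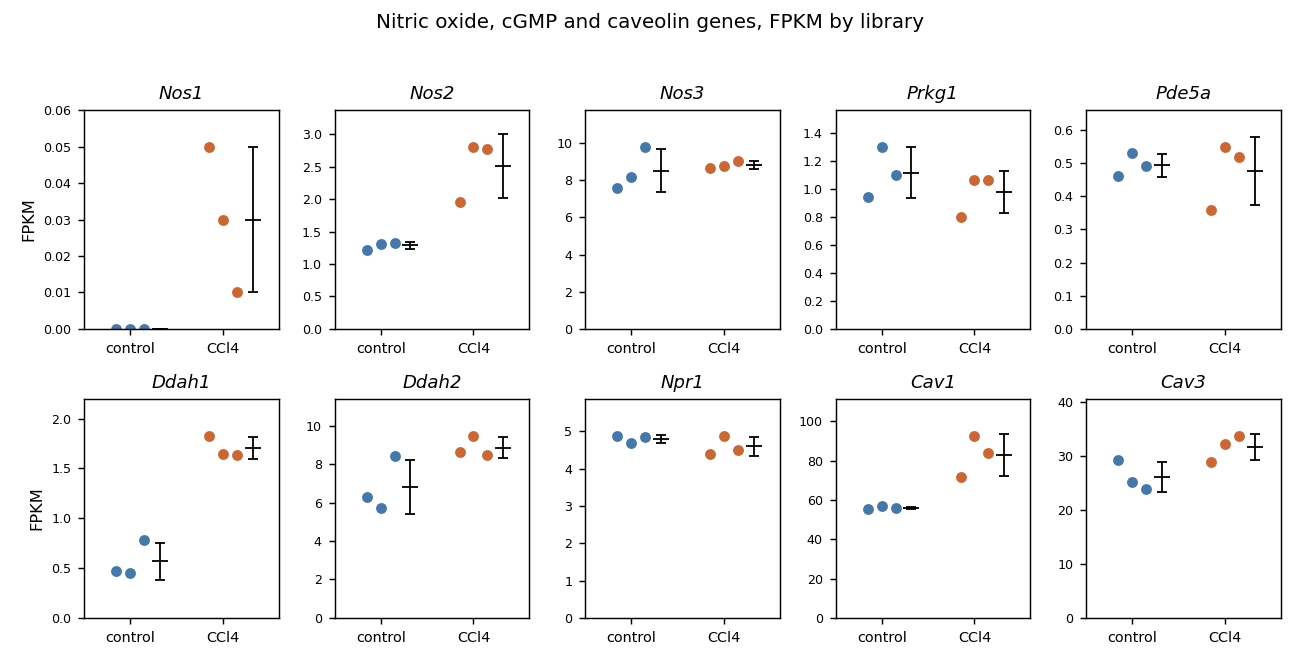
FPKM of the 10 genes in each library, with 3 control libraries (blue) and 3 CCl4 libraries (orange) per panel, in the order of replicates 1 to 3. Black marks are the group mean with 1 SD, and each vertical axis starts at 0. The groups are apart for Cav1, Nos2, Ddah1 and Ddah2, and Nos1 is near 0 throughout.

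By level, Cav1 stood highest with a mean of 69.4 FPKM over all libraries (55.35 to 92.69), followed by Cav3 at 28.8 (23.88 to 33.71). Their ranges did not overlap. Nos3 at 8.67 and Ddah2 at 7.83 FPKM came next and overlapped each other. Npr1 followed at 4.70 FPKM (4.40 to 4.89), then Nos2 at 1.90. Ddah1 at 1.14 and Prkg1 at 1.04 FPKM overlapped, since Ddah1 lay below Prkg1 in every control library and above it in every CCl4 library. Pde5a averaged 0.485 FPKM and Nos1 0.015. Among tested rows Cav1 was at the 96.3rd percentile of mean level and Prkg1 at the 1.18th.

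Of the synthases, Nos2, the inducible form that immune signals switch on, changed. It lies on chromosome 11 at 78920787 to 78960254 (GRCm38). Its level was 1.22, 1.31 and 1.33 FPKM in control replicates 1 to 3 and 1.95, 2.81 and 2.78 FPKM in CCl4 replicates 1 to 3. The groups did not overlap, and CCl4 replicate 1 was the closest to the controls. The log2 fold change was 0.61 ± 0.11 (SE; limma adjusted p = 0.00548), on the log2(FPKM + 1) scale, which understates the change of so low a gene; at a pseudocount of 0.01 it was 0.94. The call was kept when any library was left out (0.55 to 0.73).

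Macrophages and leukocytes are a known source of this synthase. Of 12 macrophage and leukocyte markers, none of them at 0, 8 were tested. Of these 1 rose (Cd68) and 1 fell (Cd14), beside 9.64% and 22.2% of all tested rows. Their summed level was 142.5 to 183.4 FPKM in control and 162.7 to 181.4 FPKM in CCl4 libraries (two-sided exact permutation p = 0.9). The pan-leukocyte marker Ptprc, too low to test, was at 0.54 to 0.75 and 0.50 to 0.70 FPKM. The other untested markers had higher means with CCl4: Cx3cr1 (0.33 ± 0.17 and 0.60 ± 0.04 FPKM), Itgam (0.65 ± 0.18 and 0.86 ± 0.21) and Fcgr1 (0.61 ± 0.17 and 0.81 ± 0.12). Of these only Cx3cr1 had groups apart. None of the untested markers was called with no filter (limma adjusted p 0.158 to 0.654). The part of these cells in the Nos2 result was not tested.

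Nos3, the synthase of endothelium, on chromosome 5 at 24364810 to 24384474, was at 7.58, 8.15 and 9.81 FPKM in the controls against 8.64, 8.77 and 9.04 FPKM with CCl4. The CCl4 values lay inside the control range. The log2 fold change was 0.05 ± 0.10 (SE; limma adjusted p = 0.703), and its sign turned as TPM (-0.091) and without control replicate 1 (-0.019). In the annotation 25.2% of its exonic length overlaps the antisense gene Gm15587 and 7.12% overlaps Atg9b on the other strand. The libraries keep strand per the labels' protocols, but that of the counting is not stated in the sources used here, so reads of these neighbours may be included. Per library the ratio of Nos3 to Nos2 was 6.60 ± 0.67 in control and 3.60 ± 0.72 in CCl4 (SD, n = 3 each), with every control library above every CCl4 library.

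Nos1, the neuronal form that heart muscle also uses, was listed at 0 in all 3 control libraries and at 0.05, 0.03 and 0.01 FPKM in the CCl4 libraries. The table has 2 decimals, and these values are within a few steps of its smallest, 0.01. In the fit with no filter it was not called (log2 fold change 0.04, limma adjusted p = 0.233), and no fold is given.

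The hydrolases of asymmetric dimethylarginine are a pair of paralogs. Ddah1, on chromosome 3 at 145758675 to 145894277, was at 0.47, 0.45 and 0.78 FPKM in the controls against 1.83, 1.65 and 1.64 FPKM with CCl4. Every CCl4 library was above the highest control, replicate 3. The log2 fold change was 0.79 ± 0.10 (SE; limma adjusted p = 0.00137), with 0.74 to 0.89 when any library was left out and 1.62 at a pseudocount of 0.01. It was also called with no filter on low values (adjusted p = 0.01).

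Ddah2, on chromosome 17 at 35059035 to 35062095, was at 6.28, 5.71 and 8.40 FPKM in the controls against 8.61, 9.48 and 8.48 FPKM with CCl4. Control replicate 3 came close to the lowest CCl4 library, and the groups did not overlap. At 0.35 ± 0.13 (SE), its log2 fold change missed the threshold (limma adjusted p = 0.0636). It passed without control replicate 3 (0.49, adjusted p = 0.00814), with TMM (0.43, 0.0257), quantile (0.45, 0.0265) and median-ratio scaling (0.45, 0.0239), without mitochondrial rows (0.40, 0.0488) and with library weights (0.37, 0.042). As TPM it was 0.23 (adjusted p = 0.196), and leaving out any other library gave 0.25 to 0.38 (adjusted p 0.115 to 0.182). Ddah2 stayed the more abundant of the pair in every library. The ratio of Ddah2 to Ddah1 was 13.4, 12.7 and 10.8 in control and 4.70, 5.75 and 5.17 in CCl4 libraries.

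The sequences upstream of this pair are shown because Ddah1 was called and its more abundant paralog was not. They are from the RefSeq promoter table on GRCm38.p6, plus strand, 5′ to 3′, and stop before any base of an annotated exon, at chr3:145758442-145758674 for Ddah1 and chr17:35058785-35059034 for Ddah2. Capitals mark matches, on either strand, to the TATA box searched as TATAAA, the GC box searched as GGGCGG, the CCAAT box, and the element of TEAD factors searched as GGAATG. No match overlaps another.
Ddah1: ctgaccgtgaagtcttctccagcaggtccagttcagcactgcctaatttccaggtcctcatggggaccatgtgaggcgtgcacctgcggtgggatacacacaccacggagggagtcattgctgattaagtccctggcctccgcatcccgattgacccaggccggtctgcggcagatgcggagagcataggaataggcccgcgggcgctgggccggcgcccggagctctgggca
Ddah2: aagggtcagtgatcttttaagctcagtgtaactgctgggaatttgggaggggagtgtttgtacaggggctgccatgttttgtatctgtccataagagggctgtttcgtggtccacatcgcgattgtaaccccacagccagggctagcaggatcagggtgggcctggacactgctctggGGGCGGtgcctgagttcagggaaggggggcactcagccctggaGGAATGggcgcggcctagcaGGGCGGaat
The Ddah1 window of 233 bases held none of these motifs, and 63.1% of it was G or C. The Ddah2 window of 250 bases held 2 GC boxes and 1 TEAD element, whose upstream ends lie 72, 9 and 29 bases before the start site, at 58% G or C. Of 32851 such windows of 250 bases in the table, 32.7% hold a GC box, 12.6% a TEAD element, 12.4% a TATA box and 33.8% a CCAAT box. A match is only a run of letters. An entry was found for 8 of the 10 genes, and not for Nos2 and Nos3.

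Other genes around the synthases moved in both directions. Of 12 tested partners and regulators 3 rose and 3 fell (median log2 fold change 0.05), beside 9.64% and 22.2% of all tested rows. Nostrin, which draws the endothelial synthase inward from the membrane, rose from 1.86 ± 0.36 to 3.04 ± 0.19 FPKM (SD, n = 3 each; limma adjusted p = 0.00853). Hsp90ab1, a chaperone that binds the endothelial synthase, fell from 314.3 ± 16.8 to 227.6 ± 14.2 FPKM (limma adjusted p = 0.00486).

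Cofactor and substrate supply were read from their own lists. Of 7 genes for tetrahydrobiopterin, the cofactor of the synthases, 4 were tested, 0 were called by limma at an adjusted p under 0.05, and 0 were below an unadjusted 0.05. Of the 7 arginine and methylarginine genes found, 2 were abundant enough to test. Slc7a1, the main arginine importer of many cells, fell from 4.63 ± 0.95 to 2.28 ± 0.60 FPKM (limma adjusted p = 0.00911), with every CCl4 library below every control. Prmt1, which makes asymmetric dimethylarginine residues, was at 11.7 ± 0.47 and 11 ± 0.74 FPKM (adjusted p = 0.408).

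Proteins that consume nitric oxide or reverse nitrosylation had 5 higher members of 10 tested (median log2 fold change 0.39), beside 9.64% of all tested rows. Of these 5, 4 were the adult globin chains of red cells. Hba-a1 was at 608.6, 157.5 and 204.8 FPKM in the controls against 627.5, 1137 and 928.9 FPKM with CCl4, so control replicate 1 was close to the lowest CCl4 library. Its call (log2 fold change 1.69, limma adjusted p = 0.0251) was lost without control replicate 2 (0.0685), control replicate 3 (0.0644), CCl4 replicate 2 (0.0795) or CCl4 replicate 3 (0.0708), with no filter (0.102) and with robust variances (0.0967). Hba-a2, a near-identical copy whose reads cannot be separated with certainty, had a log2 fold change of 1.72 (adjusted p = 0.0272), lost under the same 6 alternatives. The remaining call was Cyb5r3, a reductase that controls how alpha globin handles nitric oxide in vessel walls, from 10.5 ± 0.92 to 13.3 ± 0.53 FPKM (adjusted p = 0.0211); it was lost without control replicate 2 (0.0739) or CCl4 replicate 3 (0.0819) and as TPM (0.128). How much blood each preparation held was not measured.

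On the peptide side of cGMP synthesis, Npr1, the receptor of atrial and brain natriuretic peptides, was nearly flat. It lies on chromosome 3 at 90450591 to 90465866, and 11.7% of its exonic length overlaps the antisense gene Gm16048. Its level was 4.88, 4.69 and 4.84 FPKM in the controls against 4.40, 4.89 and 4.51 FPKM with CCl4. The log2 fold change was -0.05 ± 0.07 (SE; limma adjusted p = 0.6), and its sign turned with TMM (0.022), quantile (0.038) and median-ratio scaling (0.039).

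Npr2, the receptor of C-type natriuretic peptide, was the more abundant at 12.4 ± 1.21 and 12.3 ± 0.51 FPKM (adjusted p = 0.937). Npr3, which clears these peptides, was at 2.55, 2.22 and 4.78 FPKM in the controls against 2.06, 1.78 and 1.59 FPKM with CCl4 (limma adjusted p = 0.0773). Control replicate 3 stood apart: the log2 fold change of Npr3 was -0.53 with it and -0.27 without it (limma adjusted p = 0.0995). Npr3 passed as TPM (-0.73, adjusted p = 0.0265) and without control replicate 2 (-0.69, adjusted p = 0.042). Corin, the heart protease that activates the atrial peptide, fell from 63.9 ± 7.06 to 24.9 ± 4.0 FPKM (log2 fold change -1.33 ± 0.13, adjusted p = 0.000404).

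Pcsk6, a convertase that activates corin, rose from 8.62 ± 2.28 to 12.4 ± 0.79 FPKM (limma adjusted p = 0.0469). The call did not survive leaving out any single library other than control replicate 3 (adjusted p 0.0664 to 0.126), nor did it hold as TPM (0.109), with no filter (0.14) and with robust variances (0.0527). Of the ligand genes, Nppa was at 220.8, 272.2 and 1501 FPKM in the controls against 269.1, 153.5 and 227.2 FPKM with CCl4, with control replicate 3 alone far above the rest. Nppb was at 176.2 ± 68.3 and 109.9 ± 11.4 FPKM (SD, n = 3 each). Neither ligand passed the test (limma adjusted p = 0.223 and 0.129).

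The subunits of soluble guanylate cyclase, the receptor of nitric oxide, were measured beside the genes downstream of cGMP. Gucy1a1 was at 3.25, 4.02 and 5.02 FPKM in the controls against 2.39, 3.89 and 3.70 FPKM with CCl4 (log2 fold change -0.24 ± 0.17, limma adjusted p = 0.304). Its log2 fold change was -0.074 without CCl4 replicate 1 and -0.11 without control replicate 3. Gucy1b1 was at 6.33, 6.83 and 7.82 FPKM in the controls against 4.50, 6.59 and 6.08 FPKM with CCl4 (-0.26 ± 0.13, adjusted p = 0.161). Its groups overlapped through CCl4 replicate 2, and it passed as TPM (-0.42, adjusted p = 0.0402). In the whole list of cyclases and the peptide system 1 of 9 tested genes rose and 1 fell (median -0.36). The shares over all tested rows were 9.64% and 22.2%.

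Prkg1, the kinase that cGMP activates in vessel walls, lies on chromosome 19 at 30564489 to 31765033. It was at 0.94, 1.3 and 1.1 FPKM in the controls against 0.80, 1.06 and 1.06 FPKM with CCl4. The groups overlapped, with a log2 fold change of -0.10 ± 0.10 (SE; limma adjusted p = 0.486). Pde5a, the phosphodiesterase that sildenafil inhibits, lies on chromosome 3 at 122728947 to 122859374. It was at 0.46, 0.53 and 0.49 FPKM in the controls against 0.36, 0.55 and 0.52 FPKM with CCl4, so the highest and the lowest of the 6 values both came from the CCl4 group. With no filter on low values its log2 fold change was -0.018 ± 0.07 (SE; limma adjusted p = 0.889), and the sign turned with TMM, quantile and median-ratio scaling.

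CCl4 replicate 1 was the lowest CCl4 library for Prkg1, Pde5a, Gucy1a1, Gucy1b1 and the kinase substrate Irag1, listed under its older symbol Mrvi1, all known from vascular smooth muscle. These 5 were grouped after their values were seen. It was also the lowest CCl4 library for 11 of the 12 smooth muscle and pericyte markers and for 54% of all tested rows. The smooth muscle myosin Myh11 was at 3.04 FPKM in CCl4 replicate 1 and at 9.09 and 7.86 FPKM in the other CCl4 libraries, against 5.57 to 6.08 in control. Without CCl4 replicate 1 the CCl4 mean of Prkg1 was 1.06 against 1.11 FPKM in control, and that of Gucy1b1 6.34 against 6.99. The log2 fold changes were then -0.033 for Prkg1 and -0.12 for Gucy1b1. Over all 3 CCl4 libraries 4 of the 12 smooth muscle and pericyte markers rose and 0 fell, beside 9.64% and 22.2% of all tested rows. These 4, Acta2, Cnn1, Smtn and Cspg4, were above every control library in CCl4 replicate 1 as well. Acta2 was at 37.44 FPKM there and at 20.19 to 24.48 FPKM in control, and Smtn at 34.19 against 16.19 to 19.04 FPKM. Cnn1 passed the filter on low values only through its CCl4 libraries, so it had to differ to be tested at all. With no filter Cnn1 (limma adjusted p = 0.0886) and Cspg4 (0.0692) were not called, while Acta2 (0.0097) and Smtn (0.00366) were. None of the 12 was at 0, and their sum was 256.6 to 278.1 FPKM in control and 225.2 to 312 FPKM in CCl4 libraries. The part of the smooth muscle and pericyte content of each library in these values was not tested.

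**Figure D2:**
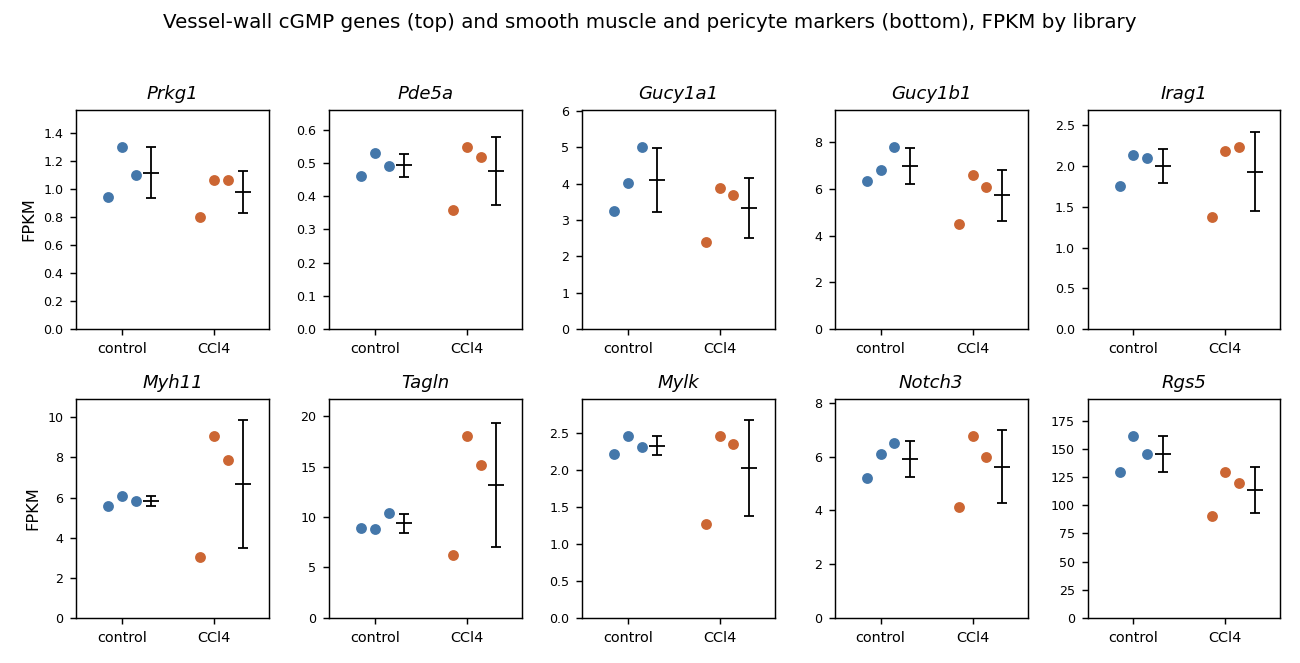
FPKM by library of 5 cGMP genes of vascular smooth muscle (top) and 5 of the 12 smooth muscle and pericyte markers (bottom), with control in blue, CCl4 in orange and replicates 1 to 3 from left to right. Black marks are the mean with 1 SD, and axes start at 0. CCl4 replicate 1 is the lowest CCl4 library in all 10 panels, as with Myh11 at 3.04 FPKM. The called markers Acta2, Cnn1, Smtn and Cspg4 are not shown, and in CCl4 replicate 1 each was above every control library.

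Other phosphodiesterases were measured beside Pde5a. Of 5 tested phosphodiesterases 2 fell and 0 rose (median -0.28), beside 22.2% and 9.64% of all tested rows. Pde2a, which cGMP itself stimulates, fell from 11.7 ± 0.58 to 9.0 ± 0.40 FPKM (limma adjusted p = 0.0111), just short with quantile (0.0518) and median-ratio scaling (0.0522). Pde3a, which cGMP inhibits, was at 7.76 ± 0.80 and 6.18 ± 0.53 FPKM (adjusted p = 0.0495), and 16 of 19 alternatives lost that call, each left-out library among them (adjusted p 0.0663 to 0.129).

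Of 8 tested partners and substrates of the kinase 1 rose and 4 fell (median -0.17), beside 9.64% and 22.2% of all tested rows. Rgs2, a regulator that the kinase phosphorylates and that shortens the signal of constrictor receptors, fell from 20.7 ± 7.65 to 4.61 ± 0.72 FPKM (log2 fold change -1.88 ± 0.25, adjusted p = 0.00151). Gtf2i, a transcription factor that binds the kinase, fell from 18.2 ± 1.23 to 13.2 ± 0.86 FPKM (adjusted p = 0.00623). Vasp, the actin regulator used as a readout of kinase activity, rose from 6.85 ± 0.46 to 9.27 ± 0.92 FPKM (adjusted p = 0.014); without control replicate 2 (0.051) or CCl4 replicate 3 (0.0536) and as TPM (0.0701) it was not called. These are transcript levels and say nothing of phosphorylation.

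**Figure D3:**
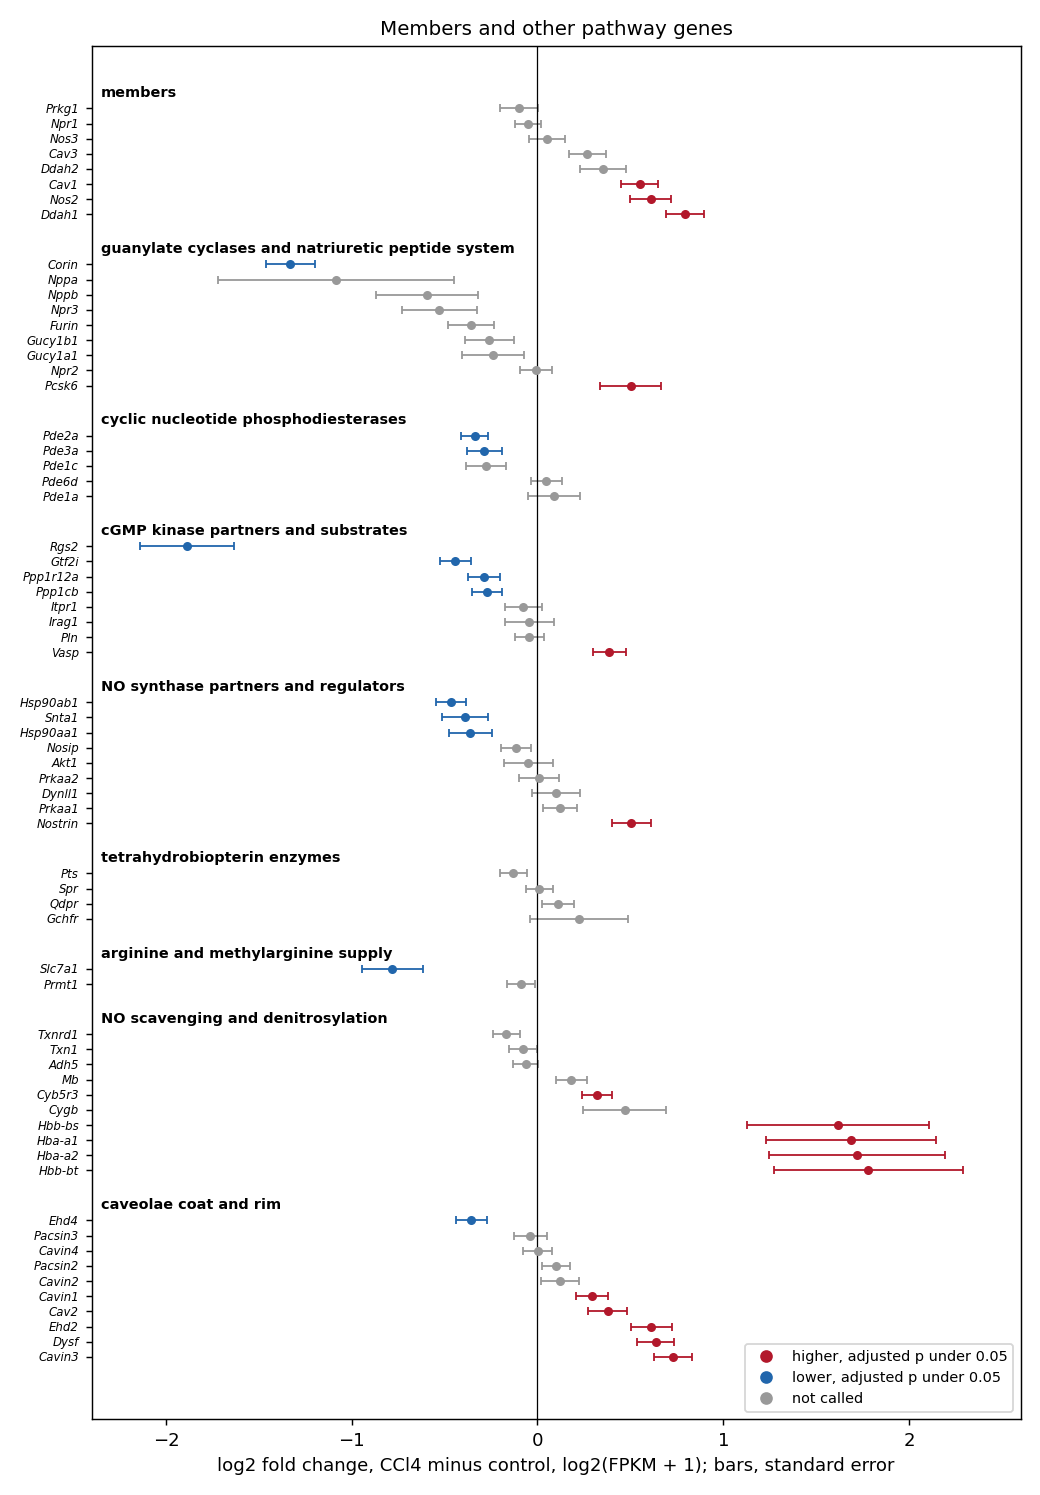
Log2 fold change, CCl4 minus control, of the 8 tested members and of tested genes from the pathway lists, some of which are not shown, by list, with standard errors from limma on log2(FPKM + 1). Red and blue points passed an adjusted p of 0.05 and grey points did not. Ddah1 is farthest to the right among the members at 0.79, and Rgs2 farthest to the left overall at -1.88.

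Cav1, the main coat protein of caveolae outside heart and skeletal muscle, was the most abundant member. It lies on chromosome 6 at 17306335 to 17341452. It was at 55.35, 56.70 and 55.70 FPKM in the controls against 71.64, 92.69 and 84.07 FPKM with CCl4. The controls lay close together and every CCl4 library was above them. The log2 fold change was 0.55 ± 0.10 (SE; limma adjusted p = 0.00542), with 0.47 to 0.65 when any library was left out, 0.40 as TPM and 0.69 with quantile scaling. It was called under all 19 alternatives run.

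Cav3, the muscle caveolin, lies on the same chromosome at 112459505 to 112472872. It was at 29.25, 25.11 and 23.88 FPKM in the controls against 28.90, 32.07 and 33.71 FPKM with CCl4. Control replicate 1 was above CCl4 replicate 1, so the groups overlapped. At 0.27 ± 0.10 (SE), its log2 fold change missed the threshold (limma adjusted p = 0.07). It passed without control replicate 1 (0.35, adjusted p = 0.0226), with TMM (0.36, 0.0264), quantile (0.42, 0.0126) and median-ratio scaling (0.38, 0.0184), without mitochondrial rows (0.32, 0.029) and with library weights (0.33, 0.0169). As TPM it was 0.12 (adjusted p = 0.419), and leaving out any other library gave an adjusted p of 0.0626 to 0.211. Cav1 exceeded Cav3 in every library, by a ratio of 1.89, 2.26 and 2.33 in control and 2.48, 2.89 and 2.49 in CCl4.

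The sequences upstream of the caveolin pair are shown because Cav1 was called under each setting and its muscle paralog was not. They come from the same table and strand, with the same motifs in capitals, at chr6:17306085-17306334 for Cav1 (the upstream of its 2 entries) and chr6:112459255-112459504 for Cav3.
Cav1: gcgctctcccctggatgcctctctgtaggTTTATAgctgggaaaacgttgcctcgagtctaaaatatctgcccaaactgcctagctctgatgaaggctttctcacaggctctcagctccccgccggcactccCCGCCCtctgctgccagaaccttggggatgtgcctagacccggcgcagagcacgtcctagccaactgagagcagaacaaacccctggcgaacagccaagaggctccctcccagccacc
Cav3: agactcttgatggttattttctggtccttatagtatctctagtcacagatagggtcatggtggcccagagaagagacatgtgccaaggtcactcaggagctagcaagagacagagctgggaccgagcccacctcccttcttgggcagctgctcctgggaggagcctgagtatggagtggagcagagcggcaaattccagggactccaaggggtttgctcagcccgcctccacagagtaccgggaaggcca
The Cav1 window held a TATA box and a GC box, both on the minus strand, with upstream ends 221 and 118 bases before the start site. The Cav3 window held none of the motifs. G or C made up 59.6% of the Cav1 window and 56% of the Cav3 window, with 10 and 4 CG pairs.

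Around the caveolins, 5 of 10 tested coat and rim genes rose and 1 fell (median log2 fold change 0.21), beside 9.64% and 22.2% of all tested rows. Cavin3, a coat protein that binds caveolin-1, rose from 5.58 ± 0.65 to 9.90 ± 0.98 FPKM (SD, n = 3 each; log2 fold change 0.73 ± 0.10, limma adjusted p = 0.00173). Ehd2, the ATPase at the neck of caveolae, rose from 16.3 ± 1.21 to 25.6 ± 3.40 FPKM (adjusted p = 0.00493). Dysf, the membrane repair protein that meets caveolin-3 in muscle, rose from 4.03 ± 0.62 to 6.78 ± 0.22 FPKM (adjusted p = 0.00283). These 3 calls were kept under all 19 alternatives.

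Cav2, the partner that forms hetero-oligomers with caveolin-1, rose from 12.7 ± 0.83 to 16.8 ± 2.3 FPKM (limma adjusted p = 0.0275). That call was lost without control replicate 1 (0.0643) or 2 (0.0623), without CCl4 replicate 2 (0.0748) or 3 (0.0602), as TPM (0.115) and with no filter (0.0749). Cavin1, the coat protein without which caveolae do not form, rose from 41.7 ± 3.79 to 51.2 ± 1.87 FPKM (adjusted p = 0.0337). Leaving out any single library other than control replicate 3 ended the call (adjusted p 0.0557 to 0.112). Cavin1 was also not called as TPM (0.246), with no filter (0.0643) or with the replicate number as a block (0.0774).

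Cavin2, enriched in endothelium, was at 46.3 ± 5.92 and 50.2 ± 2.91 FPKM (adjusted p = 0.386). Its log2 fold change of 0.12 became 0.057 without control replicate 1, 0.22 without control replicate 3 and -0.030 as TPM. Cavin4, the muscle member of the coat, was at 37.7 ± 2.32 and 37.7 ± 1.37 FPKM (log2 fold change 0.0012, SE 0.077; adjusted p = 0.992), with a sign that turned under 5 alternatives. Ehd4, an ATPase related to Ehd2, fell from 142 ± 5.16 to 110.9 ± 8.62 FPKM (adjusted p = 0.0144; 0.0721 with quantile scaling).

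**Figure D4:**
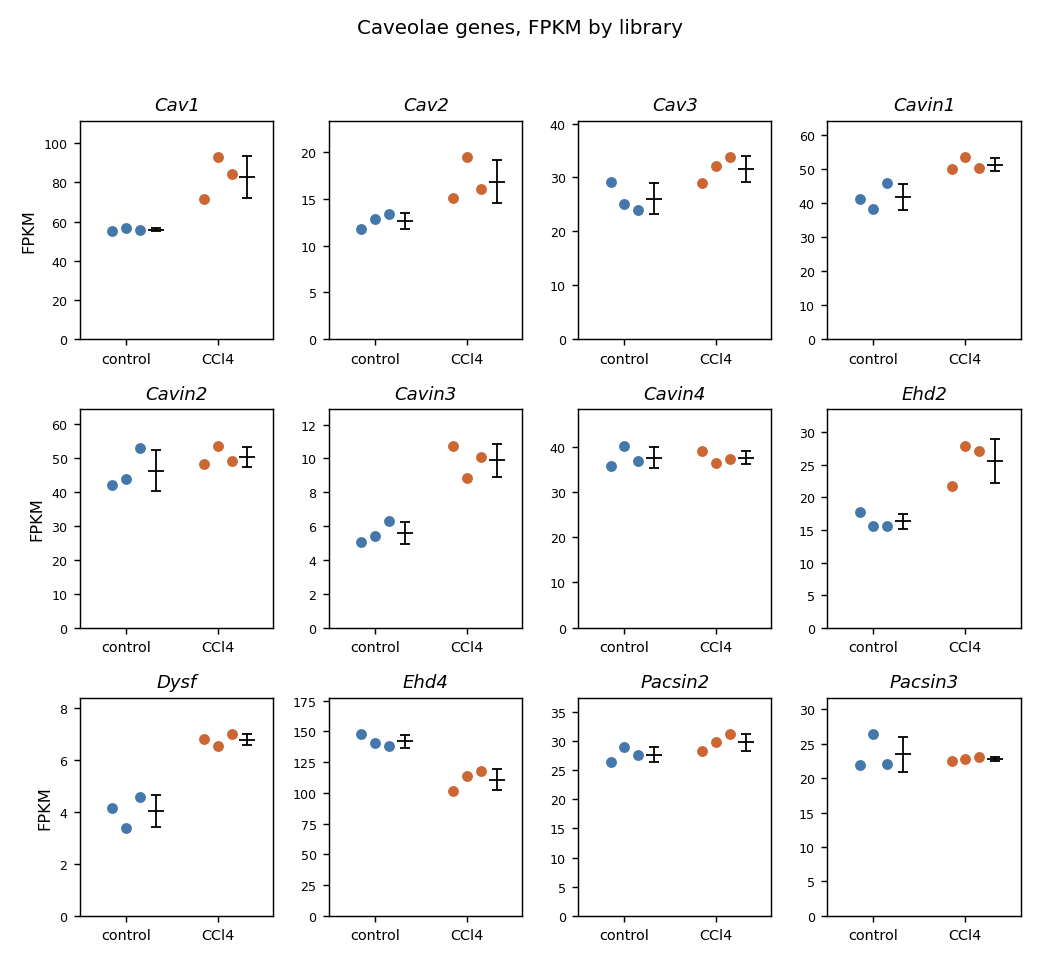
FPKM by library of the caveolins, cavins and rim proteins, with control in blue, CCl4 in orange and replicates 1 to 3 from left to right. Black marks are the mean with 1 SD, and axes start at 0. The groups are apart for Cav1, Cav2, Cavin1, Cavin3, Ehd2 and Dysf, which were higher in CCl4, and for Ehd4, which was lower. Groups were apart for 48.7% of all tested rows.

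Cell type markers were read beside the caveolins. Of 12 endothelial markers 1 rose, Kdr, and 0 fell, beside 9.64% and 22.2% of all tested rows. None of these markers was at 0. Their sum was 240.5 to 288.3 FPKM in control and 264.1 to 289.3 FPKM in CCl4 libraries (two-sided exact permutation p = 0.6). Its largest part was Fabp4, at 100.1 ± 9.45 and 84.5 ± 11.4 FPKM. The median of the markers was 14.8 ± 1.05 and 18.2 ± 1.76 FPKM (exact permutation p = 0.1, the smallest that 3 against 3 libraries allow). The ratio of Cav1 to the endothelial adhesion gene Pecam1 was 2.22 ± 0.22 in control and 3.46 ± 0.17 in CCl4 libraries, and that to the endothelial cadherin Cdh5 1.81 ± 0.21 and 2.18 ± 0.06 (SD, n = 3 each). The denominators were chosen after their values were seen. Over the 12 endothelial markers the fold of mean FPKM ran from 0.74 (Vwf) to 1.49 (Kdr), beside 1.48 for Cav1. How far Cav1 rose against endothelial markers therefore depended on the denominator too. For Nos3 the ratio to Pecam1 was 0.34 ± 0.03 in control and 0.37 ± 0.04 in CCl4 libraries, while that to Cdh5 was 0.28 ± 0.05 and 0.23 ± 0.03, so the direction depended on the denominator.

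Of the 12 fibroblast markers 7 rose and 0 fell, beside 9.64% and 22.2% of all tested rows. None of the 12 was at 0, and 3 of the 7 were the collagens Col1a1, Col1a2 and Col3a1. Their sum, most of it Gsn and Dcn, was 460.9 to 745.5 FPKM in control and 592.1 to 600.4 FPKM in CCl4 libraries (exact permutation p = 1), while their median was 4.66 ± 1.26 and 14.7 ± 0.62 FPKM (p = 0.1). Of the 12 cardiomyocyte markers 2 rose, Actc1 and Myl2, and 0 fell, beside the same 9.64% and 22.2%. None of these markers was at 0. Their sum was 13793 to 17315 FPKM in control and 20098 to 21927 FPKM in CCl4 libraries (exact permutation p = 0.1). Actc1 alone went from 1735 ± 476.9 to 5840 ± 261.3 FPKM. Their median was 1145 ± 260.4 and 1268 ± 30.8 FPKM (exact permutation p = 0.4). The part of these cell types in the caveolin, hydrolase and synthase results was not tested.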

How the data were processed

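The deposited table holds FPKM values per gene symbol at 2 decimals, made by the authors; the submitters' processing notes name StringTie 2.1.6 and GRCm38. Aligner, annotation, filters and strand setting: not given in the sources used here. Fragment counts were not used here: in low values of short single-exon genes only 23.4% to 39.1% lay within 10% of whole fragments, so depth is known only roughly and no count test was run. No column of other samples was present.

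Values were transformed to log2(FPKM + 1). A mean of 1 FPKM or more was required, which kept 10995 rows, and these were fitted in limma 3.58.1 (R 4.3.3; lmFit, eBayes with trend, no covariate), two-sided, with Benjamini-Hochberg adjustment over all of them and a threshold of 0.05. Tested on simulated data for these rows, the fit recovered 99% of 100 genes changed by 1 log2 unit and 100% of 100 changed by 2. It made 10 false calls in all. The simulated noise was independent and of equal size for every gene, with no shift between libraries. Spread differs between genes in the real data, so these rates may not hold there. Smaller changes, such as those of the members, were not simulated. Marker sums per library were compared by exact permutation tests, which cannot go below 0.1 here. Named were the 10 members, 9 fixed partners (Gucy1a1, Gucy1b1, Npr2, Npr3, Cav2 and Cavin1 to Cavin4) and up to 3 further called genes with the smallest p in each of 8 pathway lists (82 genes, 81 found). 1 gene that this rule names is not reported here. Nppa, Nppb, Irag1, Prmt1 and single markers were named after their values were seen. Members and lists were chosen with earlier results of these data known. Positions are from GENCODE M21 (GRCm38). The 19 alternatives covered pseudocount, filter, scaling, variance model, weights, replicate block and leaving out each library. Scaling was by TMM (its published formula), quantile, median-ratio, TPM, and FPKM without mitochondrial rows and their copies.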

Additional observations from a re-analysis of the deposited data

How the results depend on the processing

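Of the members, Cav1 kept its call under all 19 alternatives, and Nos2 and Ddah1 under all 18 that test them, since a minimum mean FPKM of 5 leaves both untested. Members called higher numbered 3 as reported, 1 at a mean FPKM of at least 5, and 5 with TMM, quantile or median-ratio scaling, without mitochondrial rows and their copies, or with library weights, where Ddah2 and Cav3 passed; leaving out a library gave 3 to 4, and none was called lower in any. Among all rows the higher calls were 1060 as reported, 655 at a mean FPKM of at least 5, 617 as TPM, 1722 with quantile and 1713 with median-ratio scaling, and 642 to 1137 without 1 library (648 without control replicate 2 and 642 without CCl4 replicate 3); the lower calls were 2441, 1510 at a mean FPKM of at least 5, 4221 as TPM, 1574 with median-ratio scaling, and 1546 to 2121 without 1 library (1546 without CCl4 replicate 3). The median log2 fold change of all rows was -0.09 as reported, -0.23 as TPM, -0.018 with TMM, -0.0059 with quantile and -0.0028 with median-ratio scaling. Pathway genes called higher numbered 15 as reported, 8 with no filter, 8 as TPM and 4 to 13 without 1 library (5 without control replicate 2, 6 without CCl4 replicate 2, 4 without CCl4 replicate 3). Those called lower numbered 12, 7 with no filter, 21 as TPM, 7 with TMM, 5 with quantile and 6 with median-ratio scaling, 7 without mitochondrial rows, and 7 to 11 without 1 library (the fewest with CCl4 replicate 1 or 3 left out). The cause of these shifts was not tested.

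Log2 fold changes near 0 that turned sign, none of them called, were Nos3 as TPM (-0.091) and without control replicate 1 (-0.019), Npr1 with TMM (0.022), quantile (0.038) and median-ratio scaling (0.039), Npr2 with TMM (0.073), quantile (0.10) and median-ratio scaling (0.093), without mitochondrial rows (0.038), with library weights (0.012) and without 1 library (-0.048 to 0.063), Pde5a, which was too low to test, with TMM (0.0095), quantile (0.0017) and median-ratio scaling (0.016), Cavin2 as TPM (-0.030), and Cavin4 as TPM (-0.15), with library weights (-0.032) and without 1 library (-0.032 to 0.049). As log2 ratios of CCl4 to control, marker sums and medians differed for cardiomyocyte (0.47 and 0.15), endothelial (0.05 and 0.30), fibroblast (0.04 and 1.66) and smooth muscle and pericyte markers (0.06 and 0.26), and turned sign for macrophage and leukocyte markers (0.05 and -0.036).

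Replicate numbers did not pair the libraries: deviations of same-numbered libraries correlated at -0.06, 0.05 and -0.04 across genes, and control replicate 1 correlated best with CCl4 replicate 3 (0.12). With the replicate number as a block, members called higher stayed 3, Cav3 had an adjusted p of 0.137, Cavin1 (0.0774) and Pde3a (0.109) were no longer called, pathway genes called lower numbered 7 against 12, and all rows called numbered 861 higher and 1790 lower. Nothing in the labels says whether preparations were made on separate days. Levels under about 1 FPKM (Nos1, Pde5a, control Ddah1) are the least precise here.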
